A study of Mus musculus with 6 samples.

Results

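The tumour necrosis factor (TNF) ligand and receptor superfamilies were followed in the young mouse colon after loss of Indian hedgehog from its epithelium. Members were all genes of the array whose official symbol is Tnf, Lta or Ltb or begins with Tnfsf (ligand) or Tnfrsf (receptor), with Tnfrsf19 left out, and whose row on the array carries that symbol alone. This rule uses names and no measured value, though it was chosen with earlier results of these data known. It gave 31 genes, 12 ligands and 19 receptors, of 19938 genes measured. Superfamily genes with other official symbols, such as Cd40 and Fas, are outside the rule and are described afterwards as a separate list.

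TNF superfamily ligands are trimeric membrane proteins, many of which can be released by proteases, and each binds one or a few receptors on neighbouring cells. Receptors with a death domain can start apoptosis or necroptosis, receptors without one recruit TRAF adaptors and activate NF-kappaB, and decoy receptors bind a ligand without passing on a signal. In the gut these proteins are known for organising lymphoid follicles, for the differentiation of M cells above them, for costimulation of lymphocytes and, in the case of TNF, for intestinal inflammation.

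Whole colon was taken from 3 mice labelled mutant and 3 labelled control, 1 array per mouse. The mutants were VilCre;Ihhflox/flox, in which Cre under the villin promoter, active in intestinal epithelium, deletes Ihh, the gene of a secreted signal that reaches the underlying mesenchyme. The controls are labelled wild type, and whether they carried the Cre transgene or floxed alleles is not given in the sources used here. Each mutant had a control littermate, which gave 3 litters; the design text puts the harvest at postnatal day 12, and the growth protocol at day 9 to day 12. Levels are log2 RMA values, differences are mutant minus control with the litter as a block, and a gene is said to have risen or fallen where the limma p adjusted over all 19938 genes was under 0.05.

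The deposited arrays correlated with each other by 0.9855 to 0.9936 across rows. Ihh itself was lower in the mutant of every litter, at 8.50, 8.54 and 8.68 in the controls of litters 1 to 3 and 8.37, 8.22 and 8.22 in the mutants, and did not pass (-0.30 ± 0.09 SE, adjusted p = 0.139). Which part of Ihh was deleted is not given, so this row alone is an incomplete check of the labels. Ptch1, the hedgehog receptor gene that the pathway itself induces, was lower in the mutant of every litter, by -1.26, -1.52 and -1.53, and fell with adjusted p = 0.000493. Xist, the RNA that coats the inactive X chromosome of females, was 11.96 in control 1, 12.03 in mutant 2 and 11.92 in mutant 3, and between 5.83 and 6.41 in the other 3 arrays, so each litter compared an array high in Xist with one low in it. Of 7 measured markers of colon, 2 fell (Car4 and Aqp8) and 0 rose, while Car1 (0.63), Slc26a3 (0.51) and Muc2 (0.35) lay higher in all mutants than in all controls without passing (adjusted p = 0.0570, 0.0755 and 0.0583). Of all genes 2.11% fell, 1.66% rose and 10% lay higher in all mutants than in all controls. The mean level of the colon list lay between 11.68 and 11.81 in controls and between 11.77 and 11.98 in mutants.

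The array rows carry no sequence. The stretches before 3 member genes, from RefSeq on GRCm38.p6, are given as background and were not part of the measurements. The 3 genes are Tnfrsf8, a receptor gene that rose, and the ligand genes Tnf and Ltb, the first higher in every litter without passing and the second with a change of 0.00. Each is the 250 bases that end just before the first base of the gene, 5′ to 3′ on the strand of the gene. Capitals mark matches to the NF-kappaB consensus, to the AP-1 motif TGANTCA or to the TATA box TATAAA, searched on both strands.
Tnfrsf8, chr4:145315165-145315414, minus strand: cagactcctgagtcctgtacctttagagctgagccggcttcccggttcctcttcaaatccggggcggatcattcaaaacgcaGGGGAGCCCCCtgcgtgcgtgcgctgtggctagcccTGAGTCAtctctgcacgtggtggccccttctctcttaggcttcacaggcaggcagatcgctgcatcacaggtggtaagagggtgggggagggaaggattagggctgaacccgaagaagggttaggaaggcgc
Ltb, chr17:35194257-35194506, plus strand: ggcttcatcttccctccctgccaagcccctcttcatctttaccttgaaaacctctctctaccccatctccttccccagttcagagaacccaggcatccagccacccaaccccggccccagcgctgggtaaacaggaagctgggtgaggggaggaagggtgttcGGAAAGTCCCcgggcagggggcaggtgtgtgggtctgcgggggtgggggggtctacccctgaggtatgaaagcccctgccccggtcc
Tnf, chr17:35202008-35202257, minus strand: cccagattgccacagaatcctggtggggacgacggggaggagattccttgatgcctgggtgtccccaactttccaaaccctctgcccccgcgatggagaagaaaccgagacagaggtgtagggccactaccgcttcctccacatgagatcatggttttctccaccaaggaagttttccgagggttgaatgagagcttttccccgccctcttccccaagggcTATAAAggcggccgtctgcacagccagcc
The Tnfrsf8 stretch held 2 overlapping NF-kappaB matches, at 168 to 159 and at 167 to 158 bases before the start, and an AP-1 match at 132 to 126 bases. The Ltb stretch held 1 NF-kappaB match, at 87 to 78 bases, and the Tnf stretch held a TATA box at 29 to 24 bases. RefSeq promoter windows were matched for 25 of the 31 members (28 windows). An NF-kappaB match stood in 4 of these 28 windows (14.3%), those of Ltb, Tnfrsf8, Tnfrsf9 and Tnfrsf25, against 7.25% of 32851 windows of all genes. The AP-1 motif stood in 4 of 28 (14.3%, against 6.75% of all windows), the TATA box in 6 of 28 (21.4%, against 12.37%), and GACCACCCA, the core bound by the hedgehog effectors of the GLI family, in 0 of 28 (against 0.23%). Of the other genes that rose, Tnfrsf11b had no window, and the window of Tnfrsf23 matched the TATA box alone. These matches describe letters in a window of fixed length and are not evidence of binding.

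In the colon of Ihh mutants 3 receptor genes of the superfamily rose, and no ligand gene passed the test. The genes that rose were Tnfrsf23, a decoy receptor for the death ligand TRAIL, Tnfrsf8, which encodes CD30, and Tnfrsf11b, which encodes osteoprotegerin, the secreted decoy receptor of RANKL. Their rises were modest, between 1.34-fold and 1.40-fold. The count of 3 of 31 (9.68%) stands beside 1.66% of all genes that rose and 3.77% that passed in either direction. In the other direction 0 of 31 fell (2.11% of all genes fell), and 1 member, Tnfsf10, was lower at an unadjusted limma p under 0.05 (8.03% of all genes). At that unadjusted threshold 7 members were higher, against 7.05% of all genes.

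The 31 members as a set stood slightly above 0. The superfamily genes with other symbols, described below, did not, with 4 of 12 above 0 and a median of -0.09. The log2 change was positive in 22 of 31 members (71%), against 52.5% of all genes, and the median change was 0.08 against 0.01 for all genes. Receptors accounted for most of this, with 15 of 19 above 0 and a median of 0.11, while 7 of 12 ligands were above 0 with a median of 0.01; the difference between receptors and ligands was not tested. The median over members was 0.06, 0.06 and 0.10 in litters 1, 2 and 3. All 3 mutants lay above all 3 controls for 9 members (29%; 10% of all genes), and below them for 3 members (9.78% of all genes). A member was higher in the mutant of every litter in 13 cases (18.8% of all genes) and lower in 3 cases (17.1% of all genes). Changes ranged from -0.46 to 0.49, and 8 of the 31 members belonged to the dimmest 30% of genes, where none passed and none reached an unadjusted limma p under 0.05.

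**Figure D1:**
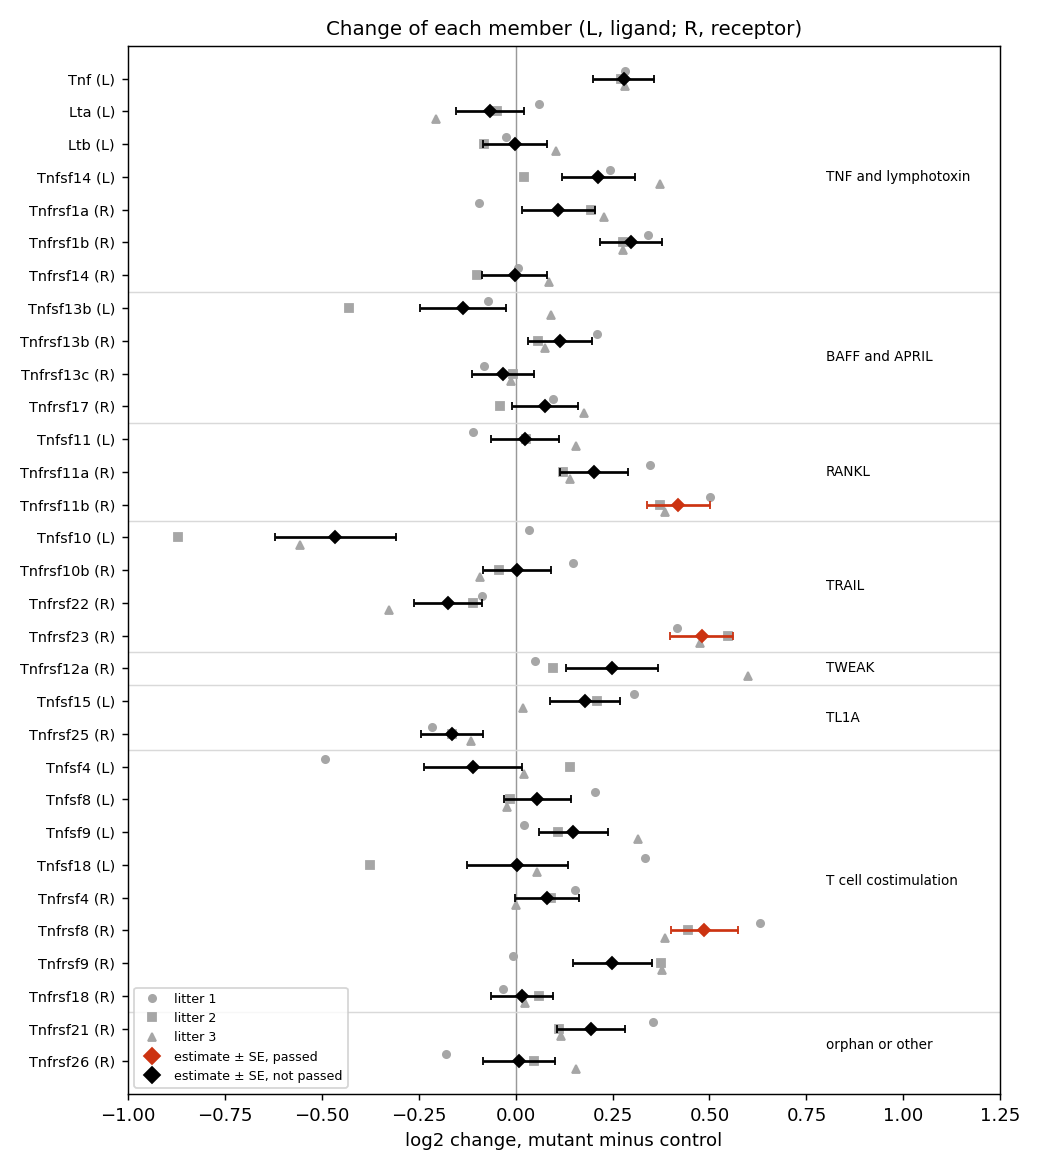
Log2 change, mutant minus control, of the 31 members, grouped by ligand system; diamonds and bars are the limma estimate and its SE, and grey symbols are the 3 litters. The 3 receptor genes that passed, in red, lie between 0.42 and 0.49, and the lowest estimate is that of Tnfsf10 at -0.46, where litter 1 stands apart at 0.03.

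Among the genes of TNF and the lymphotoxins, Tnf and the gene of its receptor 2 were higher in every litter by a similar amount, without passing. Tnf, an inflammatory cytokine made largely by macrophages, was at 6.38, 6.20 and 6.18 in the controls of litters 1 to 3 and at 6.66, 6.47 and 6.46 in the mutants. Every mutant exceeded every control, and the difference was 0.28, 0.27 and 0.28 in the 3 litters. The limma estimate was 0.28 ± 0.08 SE (95% interval 0.10 to 0.46), with adjusted p = 0.113. Tnfrsf1b, which encodes the TNF receptor that lacks a death domain and is found on leukocytes and endothelium, was at 8.03, 8.09 and 8.15 in controls and at 8.38, 8.37 and 8.43 in mutants. The groups did not overlap, and the estimate was 0.30 ± 0.08 SE (adjusted p = 0.0950). Tnfrsf1a, the widely expressed receptor with a death domain, was at 9.19, 9.38 and 9.29 in controls and at 9.09, 9.58 and 9.51 in mutants, so the groups overlapped and the mutant was lower in litter 1 (0.11 ± 0.09 SE, adjusted p = 0.697).

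The lymphotoxin genes, whose products build lymph nodes and gut lymphoid follicles, did not pass and had changes near 0. Ltb was at 7.05, 7.17 and 7.35 in controls and at 7.02, 7.09 and 7.45 in mutants, with a 95% interval of the change from -0.19 to 0.19. Lta, next to Tnf on chromosome 17 with no gene between them, stood at -0.06 ± 0.09 SE and is among the dimmest 30% of genes. The 3 linked genes Ltb, Tnf and Lta therefore gave changes of 0.00, 0.28 and -0.06, of which none passed. Tnfsf14, which encodes the T cell ligand LIGHT, was higher in every litter (0.24, 0.02 and 0.37) with overlapping groups, and Tnfrsf14, the gene of its receptor HVEM, stood at 0.00 (95% interval -0.20 to 0.19).

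In the RANKL system the gene of the decoy rose and that of the ligand did not pass. Tnfrsf11b, or osteoprotegerin, which binds RANKL and also TRAIL, was at 8.03, 8.30 and 8.28 in the controls of litters 1 to 3 and at 8.53, 8.67 and 8.66 in the mutants. The mutants all lay above the controls, and litter 1 had the lowest array of each group. The rise was 0.42 ± 0.08 SE, or 1.34-fold (adjusted p = 0.0322). This call is near the threshold. It was lost with any litter left out (adjusted p = 0.0652 without litter 1, 0.0585 without litter 2 and 0.108 without litter 3) and without the litter block (0.0505), while the estimate stayed between 0.38 and 0.44.

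Tnfsf11, the gene of RANKL, which drives M cell differentiation in the gut and osteoclast formation in bone, was at 8.44, 8.20 and 8.26 in controls and at 8.33, 8.22 and 8.41 in mutants. The groups overlapped and the change was 0.02 ± 0.09 SE (95% interval -0.18 to 0.23). Tnfrsf11a, the gene of the signalling receptor RANK, was at 9.05, 9.13 and 9.12 in controls and at 9.40, 9.25 and 9.26 in mutants. It was higher in every litter without overlap, by 0.20 ± 0.09 SE, and did not pass (adjusted p = 0.325). The change of Tnfrsf11b exceeded that of Tnfsf11 by 0.61, 0.35 and 0.23 in litters 1, 2 and 3, a contrast picked after the values were seen. It is given as a description, with no test.

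Of the TRAIL genes, 1 decoy receptor gene rose and the other 3 did not pass, with changes of either sign. Tnfrsf23, a mouse decoy receptor for TRAIL without a death domain, was at 6.94, 6.87 and 6.89 in the controls of litters 1 to 3 and at 7.36, 7.42 and 7.37 in the mutants. The spread within each group (SD 0.04 and 0.03) was small beside the gap between them, and the rise was 0.48 ± 0.08 SE, or 1.40-fold (adjusted p = 0.0199). The adjusted p was 0.0554 without litter 2 and 0.0694 without litter 3, with estimates of 0.45 and 0.48. Its neighbour Tnfrsf22, the gene of another TRAIL decoy, was at 7.08, 7.10 and 7.18 in controls and at 7.0, 6.99 and 6.85 in mutants. All mutants were below all controls, and the change of -0.17 ± 0.09 SE did not pass (adjusted p = 0.424). Tnfrsf26, the third gene of this cluster on chromosome 7, which has no gene between its members in RefSeq, stood at 0.01 ± 0.09 SE.

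The gap between the changes of Tnfrsf23 and Tnfrsf22 was 0.50, 0.66 and 0.80 in the 3 litters. This contrast, too, was picked after the values were seen and is a description with no test. The genes of this cluster are close relatives, and the probe sequences were not used here, so how far signal is shared between their rows was not tested.

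Tnfsf10, the gene of TRAIL itself, which induces apoptosis through death receptors, was at 7.14, 7.83 and 7.68 in the controls of litters 1 to 3 and at 7.17, 6.96 and 7.13 in the mutants. Controls 2 and 3 were high, while control 1 lay among the mutants, so the groups overlapped. Litters 1 to 3 gave changes of 0.03, -0.87 and -0.56, with an estimate of -0.46 ± 0.16 SE that did not pass (adjusted p = 0.187). The value depended on the litter left out: it was -0.71 without litter 1, which passed (adjusted p = 0.0213), -0.26 without litter 2 (adjusted p = 0.505) and -0.42 without litter 3 (adjusted p = 0.381). With array weights it was -0.59 (adjusted p = 0.0305). Litter 1 is also the litter in which the control and not the mutant was high in Xist. With the Xist level as a covariate, a fit with 1 residual degree of freedom, the change of Tnfsf10 was -0.32 (limma adjusted p = 0.106). The part of Xist in the difference between litters was not tested. Tnfrsf10b, the mouse death receptor for TRAIL, was at 7.40, 7.60 and 7.46 in controls and at 7.55, 7.56 and 7.37 in mutants, with a change of 0.00 ± 0.09 SE (95% interval -0.20 to 0.21).

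**Figure D2:**
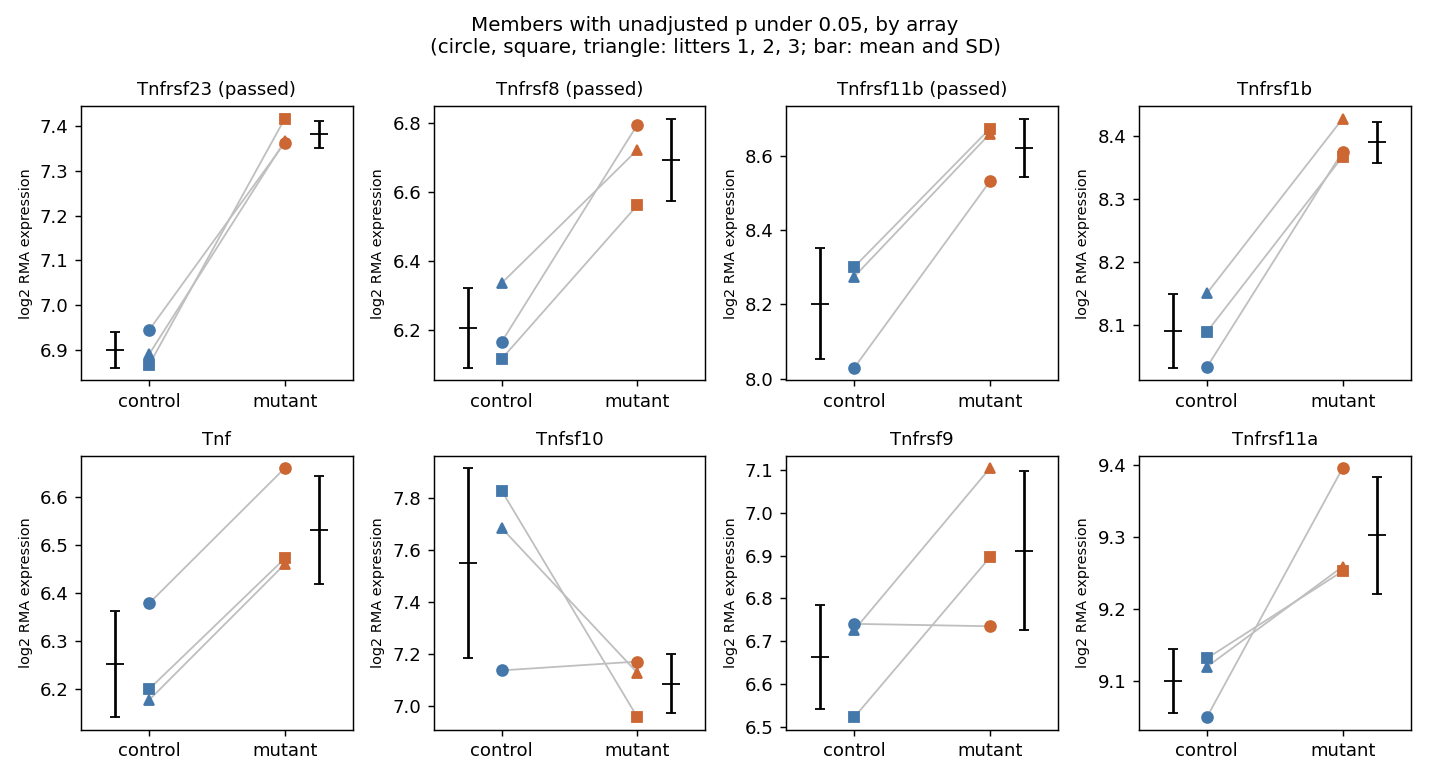
Log2 RMA expression of the 8 members with an unadjusted limma p under 0.05, with control and mutant littermates joined by lines; each panel has its own axis, which does not start at 0. In Tnfrsf23, Tnfrsf8, Tnfrsf11b, Tnfrsf1b, Tnf and Tnfrsf11a every mutant lies above every control, whereas Tnfsf10 and Tnfrsf9 overlap because litter 1 differs by 0.03 and -0.01.

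Of the 8 ligands and receptors that costimulate T cells, Tnfrsf8 rose and the other 7 did not pass. Tnfrsf8, the gene of CD30, which is found mainly on activated lymphocytes, was at 6.17, 6.12 and 6.34 in the controls of litters 1 to 3 and at 6.80, 6.56 and 6.72 in the mutants. The groups did not overlap, and the rise was 0.49 ± 0.09 SE, or 1.40-fold (adjusted p = 0.0242). Without litter 1, where the difference was 0.63, it was 0.42 with adjusted p = 0.0515. Its level is low, at percentile 31.0 of all genes, and no detection call was used. Tnfrsf1b, which lies beside it on chromosome 4 with 1 gene, Gm36233, in between, had the smallest p of the members that did not pass. Tnfsf8, the gene of the CD30 ligand, was at 5.21, 5.22 and 5.29 in controls and at 5.42, 5.21 and 5.27 in mutants. It is among the dimmest 30% of genes and stood at 0.06 ± 0.09 SE.

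Tnfrsf9, the gene of the activation receptor CD137, was at 6.74, 6.52 and 6.73 in controls and at 6.73, 6.90 and 7.10 in mutants. It was higher in litters 2 and 3 and level in litter 1 (0.25 ± 0.10 SE, adjusted p = 0.297). The gene of its ligand, Tnfsf9, was at 5.64, 5.73 and 5.46 in controls and at 5.66, 5.84 and 5.78 in mutants, with overlapping groups (0.15 ± 0.09 SE, adjusted p = 0.524). The OX40 and GITR receptor genes Tnfrsf4 and Tnfrsf18 stood at 0.08 and 0.02, and those of their ligands, Tnfsf4 and Tnfsf18, at -0.11 and 0.00. In both ligand genes litter 1 and litter 2 went opposite ways, by -0.49 and 0.14 for Tnfsf4 and by 0.33 and -0.37 for Tnfsf18.

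None of the B cell survival genes passed. Tnfsf13b, the gene of BAFF, was at 6.96, 7.46 and 6.97 in controls and at 6.89, 7.03 and 7.06 in mutants, with the high value in control 2 and a change of -0.14 ± 0.11 SE. Its receptor genes Tnfrsf13b (TACI), Tnfrsf13c (BAFF receptor) and Tnfrsf17 (BCMA, a receptor of plasma cells) stood at 0.11, -0.03 and 0.08, with adjusted p values from 0.621 to 0.921. The mutants were all below the controls for Tnfrsf13c, by at most 0.08 in any litter.

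None of the remaining receptor genes, nor that of TL1A, passed. Tnfrsf12a, the gene of Fn14, the receptor of TWEAK that is induced in injured tissue, was at 8.46, 8.42 and 8.32 in controls and at 8.51, 8.52 and 8.92 in mutants. Mutant 3 was the high array, and the estimate of 0.25 ± 0.12 SE (adjusted p = 0.391) was 0.07 without litter 3. Tnfsf15, the gene of TL1A, a cytokine of gut endothelium and myeloid cells, was at 6.41, 6.52 and 6.64 in controls and at 6.72, 6.73 and 6.66 in mutants (0.18 ± 0.09 SE, adjusted p = 0.419). Tnfrsf25, the gene of its death domain receptor DR3, was at 6.22, 6.29 and 6.19 in controls and at 6.01, 6.13 and 6.07 in mutants, below the controls in every litter and among the dimmest 30% of genes (-0.16 ± 0.08 SE, adjusted p = 0.403). Tnfrsf21, the gene of the death receptor DR6, was at 8.75, 9.01 and 8.92 in controls and at 9.10, 9.12 and 9.04 in mutants, above the controls in every array (0.19 ± 0.09 SE, adjusted p = 0.360).

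None of the superfamily genes with other official symbols passed. Of 12 measured, among them Cd40, Fas, Ltbr (lymphotoxin beta receptor) and Cd27, 0 rose and 0 fell by the limma test. This is near the share of all genes that passed in either direction, 3.77%. At an unadjusted limma p under 0.05 there were 0, beside 15.1% of all genes. Their median change was -0.09, and the lowest was that of Cd40lg, the gene of the CD40 ligand of helper T cells, at -0.24 ± 0.11 SE. All 12 had overlapping groups, while 19.8% of all genes had groups that did not overlap.

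Among signalling genes downstream of the receptors Ripk3 passed. Of 21 measured adaptors, ubiquitin ligases and death pathway genes, 1 rose and 0 fell, beside 3.77% of all genes that passed in either direction, with a median of 0.00. At an unadjusted limma p under 0.05 there were 2, both higher, beside 15.1% of all genes. Ripk3, the kinase of necroptosis, rose from 8.11 ± 0.23 to 8.70 ± 0.20 (SD, n = 3 each), by 0.59 ± 0.09 SE (limma adjusted p = 0.0141, but 0.0527 without the litter block and 0.0547 without litter 3). Mlkl, which executes necroptosis after Ripk3, stood at 0.17 and Casp8, the protease that restrains it, at 0.14, and neither passed. Of 10 NF-kappaB kinases and subunits 0 passed in the limma fit and 1, Nfkb2, the subunit of the alternative pathway, had an unadjusted p under 0.05 (0.27 ± 0.08 SE, adjusted p = 0.131).

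Of 20 genes that TNF induces through NF-kappaB, 1 rose, 1 fell and 18 did not pass, beside 3.77% of all genes that passed. At an unadjusted limma p under 0.05 there were 8, 7 higher and 1 lower, beside 15.1% of all genes. The median change was 0.14, and 15 of the 20 (75%) were above 0, against 52.5% of all genes. Nfkbiz, an inducible nuclear IkappaB protein, rose by 0.43 ± 0.08 SE (adjusted p = 0.0308, with 0.0838 without litter 2 and 0.162 without litter 3). Csf1, the macrophage growth factor, fell by 0.49 ± 0.09 SE (adjusted p = 0.0217, with 0.0697 without litter 3). The neutrophil chemokine gene Cxcl2 stood at 0.66 ± 0.15 SE (limma adjusted p = 0.0556). Il6 stood at 0.36 ± 0.11 SE (limma adjusted p = 0.159). The levels of Cxcl2 and Il6 are low, at percentiles 12.8 and 1.4 of all genes, and no detection call was used. The feedback inhibitor genes Nfkbia and Tnfaip3 stood at 0.18 and -0.06. Among 5 sheddases and their regulators 1 fell and 0 rose. Timp3, the inhibitor of the protease that releases TNF, fell by 0.54 ± 0.09 SE (adjusted p = 0.0160), while Adam17, the gene of that protease, stood at 0.00.

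**Figure D3:**
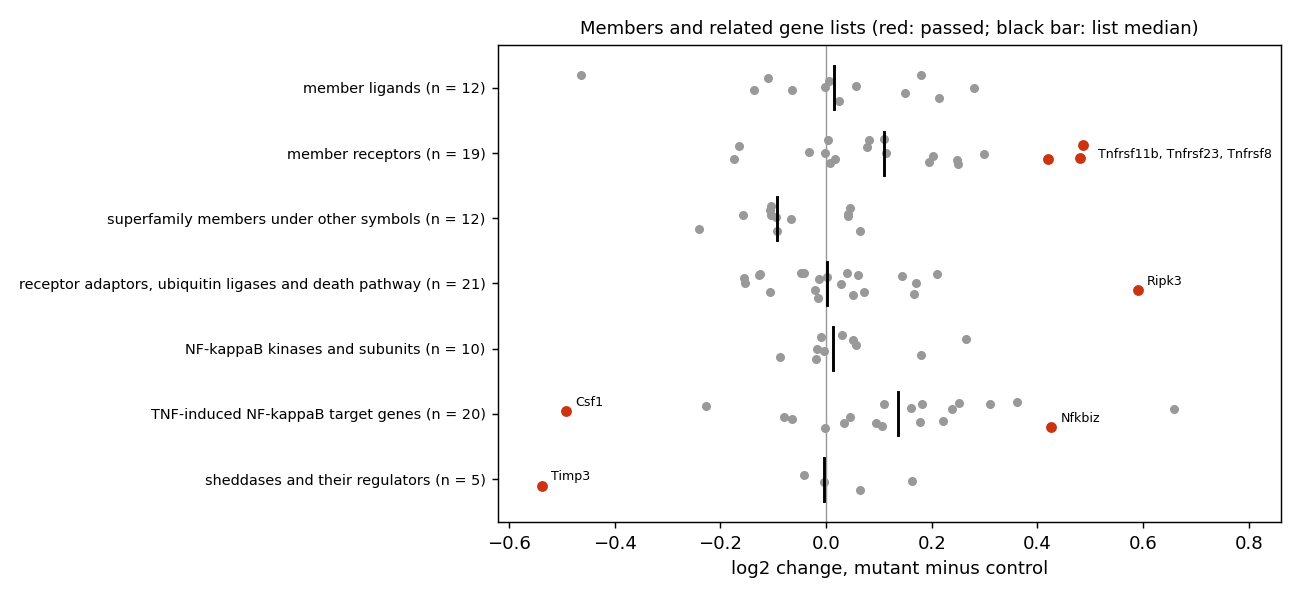
Log2 change, mutant minus control, of each gene in the member ligands, member receptors and 5 related lists; red points passed the limma test, black bars are list medians, and vertical scatter within a row has no meaning. Receptor genes reach furthest to the right among the members, the list of superfamily genes with other symbols lies mostly below 0 (median -0.09), and the TNF-induced genes lie mostly above 0 (median 0.14).

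Cell type markers moved alongside these changes, and in whole tissue fewer cells of a type cannot be told apart from less RNA per cell. Neutrophil markers were higher: 7 of 10 rose, 0 fell, and the mean level of the list was between 5.57 and 5.73 in controls and between 6.01 and 6.65 in mutants. The count was 5 to 8 with a litter left out and 4 without the litter block. It was 2 without the dimmest 30% of genes, a fit that leaves out Cxcr2, S100a8, Retnlg, Ltf and Mmp8. Of all genes 1.66% rose and 2.11% fell. Smooth muscle and fibroblast markers were lower (4 of 10 fell; 12.42 to 12.52 in controls and 11.97 to 12.34 in mutants), as were endothelial markers (6 of 9 fell; 8.53 to 8.81 against 8.16 to 8.34). The first count was 2 without litter 1, and the second was 2 without litter 3 and 4 without the litter block. Of 12 measured T and NK cell markers 1 fell (Cd4) and 0 rose, with list levels of 6.31 to 6.67 in controls and 6.25 to 6.41 in mutants. The Cd4 call was lost without litter 2 or litter 3 and without the litter block or with the litter as a random block. It was also lost when rows with any gene symbol entered the fit. B and plasma cell markers had 0 of 10 past the limma test, with 8 below 0 and a median change of -0.18. At an unadjusted limma p under 0.05, 2 were lower (Fcer2a and Cd79b) and 1 was higher (Blnk), beside 15.1% of all genes in either direction. List levels were 7.55 to 7.76 in controls and 7.58 to 7.68 in mutants. In this linear mean the brightest genes, Sdc1 and Blnk, weigh most (9.86 and 8.52 in controls), so its overlap says little about the dimmer B cell genes. Macrophage, monocyte and dendritic cell markers went both ways, with Cd14 higher and Cx3cr1 lower among 9 (7.93 to 8.01 in controls and 7.75 to 7.98 in mutants). The Cd14 call was lost without litter 2 or litter 3, without a fixed litter block, and with quantile normalization or median centring. It was lost, too, with rows of any gene symbol in the fit. The Cx3cr1 call was lost without litter 2.

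Of 10 small intestine markers 2 rose (Slc10a2 and Fabp2) and 8 did not pass, with a median change of 0.20 and list levels of 7.44 to 7.70 in controls and 7.93 to 8.76 in mutants. Of all genes 1.66% rose and 2.11% fell. The change was above 0 in 9 of the 10, and in 5 all mutants lay above all controls (10% of all genes). The list level is a linear mean in which bright genes weigh most, such as Apoa4 (1.19, adjusted p = 0.108). Fabp6 stood at 1.07 (adjusted p = 0.171), with 2.40 in litter 2, and Gata5 and Defa24 at 0.22 and 0.18. Lct, Apob, Gata4 and Rbp2 stood at 0.11, 0.09, 0.08 and -0.08. The count of small intestine markers that rose was 1 without litter 1. Epithelial markers overlapped between groups (11.77 to 11.89 and 11.84 to 11.90), with 1 of 9 risen. Of 7 lymphoid follicle and M cell markers Ccl9 rose and Spib, a transcription factor of M cells and B cells, fell. The list level was 6.92 to 7.61 in controls and 7.10 to 7.31 in mutants. The median change was -0.27, with 5 of 7 below 0. At an unadjusted limma p under 0.05, 4 were lower and 1 was higher, beside 8.03% and 7.05% of all genes. The Spib call was lost without litter 2 or litter 3 and without a fixed litter block. Spib is itself among the dimmest 30% of genes, so the fit without them did not test it. The part of these markers in the changes of the TNF superfamily genes was not tested.

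**Figure D4:**
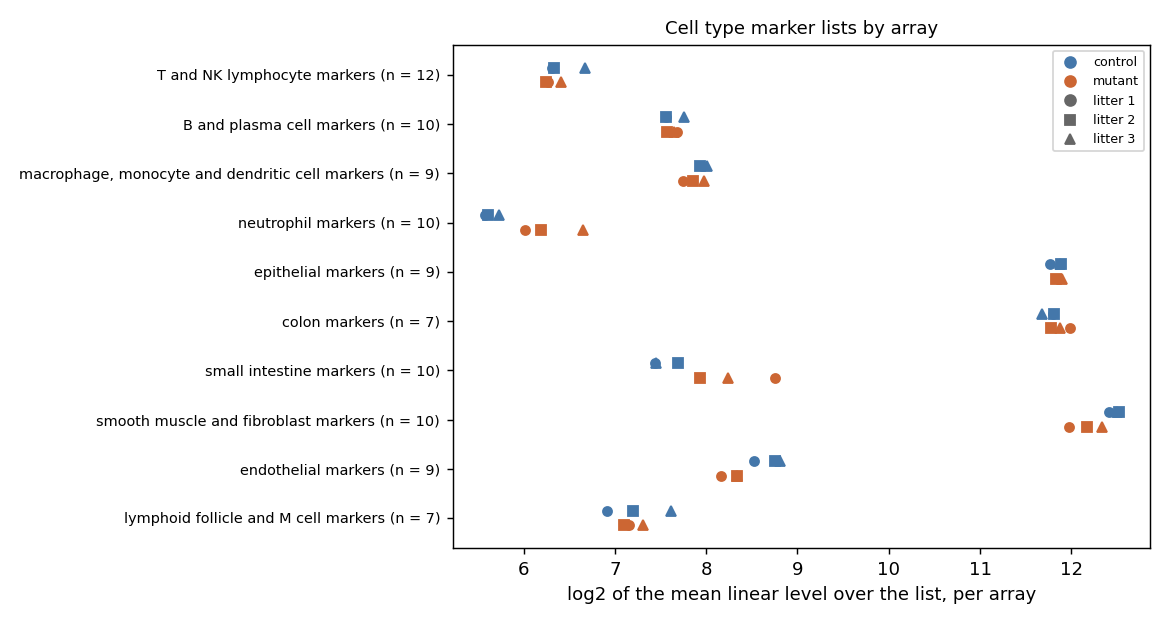
Level of each cell type marker list on each array, as log2 of the mean linear RMA level over its genes; colour gives the group and the symbol the litter. Neutrophil and small intestine lists lie higher in all mutants than in all controls, smooth muscle, fibroblast and endothelial lists lie lower, and epithelial, B cell and T cell lists overlap. Bright genes weigh most in a list, such as Sdc1 and Blnk among the B cell markers.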

How the data were processed

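Total RNA of whole colon was hybridised to Affymetrix Mouse Gene 1.0 ST arrays, 1 per mouse (6 arrays). The deposited log2 expression values were made by the authors with RMA, per the submitters' processing notes; the RMA version and the build of the probe design were not given in the sources used. Of 35557 rows, 21789 carried 1 symbol in the platform annotation, 1621 several and 12147 none; 21698 were matched to RefSeq by Entrez identifier and 0 symbols changed. The row with the highest mean was kept per gene, which left 19938 genes; every member had a single row.

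Mutant was compared with control in limma 3.58.1 (R 4.3.3, lmFit and eBayes, two-sided) with the litter as a fixed block, since the design text names littermates. Deviations of littermates from group means correlated by 0.0128, 0.00516 and 0.0613, so pairing rests on the labels. P values were adjusted by Benjamini-Hochberg over 19938 genes, threshold 0.05. The fit has 2 residual and 5.85 prior degrees of freedom. SE is that of the fit; precision is limited by 3 arrays per group. The scripts were tested on simulated data.

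Members and lists were chosen with earlier results of these data known. Values by array are given for members that passed, for up to 4 with the smallest p in each ligand system and for their partners. Alternatives were no litter block, a random block, trend with robust, array weights, no dim genes, quantile normalization, median centring, row means, all rows, rows with any symbol, Xist as covariate, a paired test without shared variance, and each litter left out. A list's level is log2 of its mean linear value.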

Additional observations from a re-analysis of the deposited data

How the results depend on the processing

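Over 15 alternatives the 3 members that rose kept a positive change, between 0.38 and 0.54. Under all alternatives except 6 the same 3 genes passed. No member passed as higher (0) when all rows of the table entered the fit, where the prior degrees of freedom were 3.01 in place of 5.85 and 2 genes in all passed, or in the ordinary paired test without shared variance, where 0 genes passed; 5 members were higher at an unadjusted p under 0.05 in each. With rows carrying any gene symbol, an alternative chosen after seeing the data, the same 3 passed. Without the replicate block 2 passed, and Tnfrsf11b had adjusted p = 0.0505; the cause was not tested. With a litter left out the count was 1 each time (range 1 to 1): Tnfrsf23 without litter 1, and Tnfrsf8 without litter 2 or litter 3; these fits have 1 residual degree of freedom. The count of members that fell was 1 (Tnfsf10) with array weights and 0 to 1 with a litter left out, and Ihh, at -0.355 with array weights, then passed (adjusted p = 0.0418). Tnf and Tnfrsf1b passed under 0 of 15 alternatives, with adjusted p from 0.0637 to 0.429 and from 0.0549 to 0.434. Of 457 member values under the alternatives 26 had the opposite sign, all in members that did not pass. Of 450 counts over the related and marker lists, 88 moved by over 1.5 times.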

Other observations

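The genes of TWEAK (Tnfsf12) and APRIL (Tnfsf13) share 1 array row with the Tnfsfm13 transcript that joins them, so this row falls outside the rule. It was at 7.68, 7.70 and 7.66 in controls 1 to 3 and at 7.76, 7.72 and 7.70 in mutants 1 to 3. Its change was 0.05 ± 0.08 SE, with limma adjusted p = 0.894 in the fit on all rows of the table.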
